A study of Mus musculus with 11 samples.

Results

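The smooth muscle contractile apparatus was followed as 34 genes, taken by name, out of 32287 genes in the deposited count matrices. They encode the actin, myosin and tropomyosin of the contractile filaments, the proteins that sit on them, the kinases and phosphatase that switch myosin, the anchors that tie filaments to the membrane, a pair of calcium store proteins and the factors that transcribe the programme. The libraries came from cerebrovascular cells of 6 R182C-TgN3 mice (genotype label TgN3 R182C, line Tg350, 3 mice of 6 months and 3 of 9 months) and 5 WT-TgN3 mice (genotype label TgN3, line Tg100, 3 of 6 months and 2 of 9 months), of both sexes and untreated. Both lines carry a human NOTCH3 transgene, with the CADASIL variant R182C in the first, so the control animals are transgenic too and not plain wild-type. CADASIL is an inherited small vessel disease in which brain vascular smooth muscle cells degenerate, and the question asked of the members was whether their RNA differed between the genotypes in the cells that carry it.

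In general, smooth muscle contracts when calcium-bound calmodulin activates myosin light chain kinase, which phosphorylates the regulatory light chain and lets myosin pull on actin. Myosin phosphatase reverses this, and other kinases hold the phosphatase back. Serum response factor, with its coactivator myocardin, binds CArG boxes in the promoters of many of these genes, and in brain vessels the programme marks arterial and arteriolar smooth muscle and is weak in capillary pericytes.

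Cerebrovascular cells were selected on CD31, an endothelial surface protein, and 1 droplet library was made per mouse, in 4 preparation batches. Of 66658 barcodes, 58585 were kept. A cell counted as smooth muscle when it held at least 2 unique molecular identifiers (UMIs) of Myh11, more than its pericyte and fibroblast marker UMIs, and few endothelial or microglial ones. This gave 2102 smooth muscle cells, 65 to 358 per mouse, with a median of 36 Myh11 UMIs per cell. Of the 3225 kept cells with at least 2 Myh11 UMIs, 1123 were left out for markers of another class, 936 of them for endothelial markers, and 577 of those came from 1 mouse (R182C-TgN3, 6 months, mouse 1). At the edge of the gate, 9 cells held exactly 2 Myh11 UMIs and an Acta2 level of 1578 CPM (UMIs of the gene over all UMIs of the summed cells, scaled to a common total), and 40 cells just outside it, with 1 UMI, had 687 CPM. The same rules gave 568 pericytes (Vtn and Kcnj8), 90 fibroblasts, 36625 endothelial cells and 13304 microglia. Cells with more than 10% of UMIs from mitochondrial genes had been dropped, and this limit weighed most on smooth muscle cells. At a limit of 20% the gate held 2679 smooth muscle cells, 576 pericytes and 36865 endothelial cells. Besides Myh11, which chose the cells, the 5 other smooth muscle markers (Acta2, Tagln, Cnn1, Lmod1 and Myocd) had UMIs. They summed to 16385 to 22575 CPM in R182C-TgN3 mice and 18423 to 20341 in WT-TgN3 mice, against 323 to 1189 and 520 to 2118 in pericytes. Endothelial markers summed to 52.8 to 201 CPM in these cells in R182C-TgN3 mice and 67.2 to 175 in WT-TgN3 mice, with all 7 at more than 0. Microglial markers came to 217 to 599 and 176 to 434 CPM, also with all 7 detected. In 1471 kept cells, 36 of them in the smooth muscle gate, the barcode also occurred in another library.

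Levels are CPM of a mouse's summed cells of a class. A 3′ UMI stands for 1 captured molecule whatever the transcript's length, so levels of different genes are not scaled by length. Differences between genes in capture and mapping were not measured, so a ranking of genes by level is approximate. Because Myh11 chose the smooth muscle cells and was capped in the other classes, differences between classes were described without a test. The 34 genes held 6.65% of the UMIs of smooth muscle cells, and the 5 most abundant held 52.7% of that share. Pooled over mice, 32 of the 34 were highest in smooth muscle cells, and Cald1 and Casq2 were highest in pericytes. The lowest smooth muscle mouse lay above the highest pericyte mouse for 28 members, against 4.4% of 12747 genes with that order, and below the lowest pericyte mouse for 1 member, Casq2, against 5.62% of genes. Against endothelial cells 32 members were higher without overlap, against 10.8% of 15952 genes. The median member was 6.16-fold higher in smooth muscle cells than in pericytes and 41.7-fold higher than in endothelial cells, where the median of 12983 genes was 0.802-fold and 0.894-fold. Myh11, whose order between classes was set by the gate, is included in these counts and medians.

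**Figure D1:**
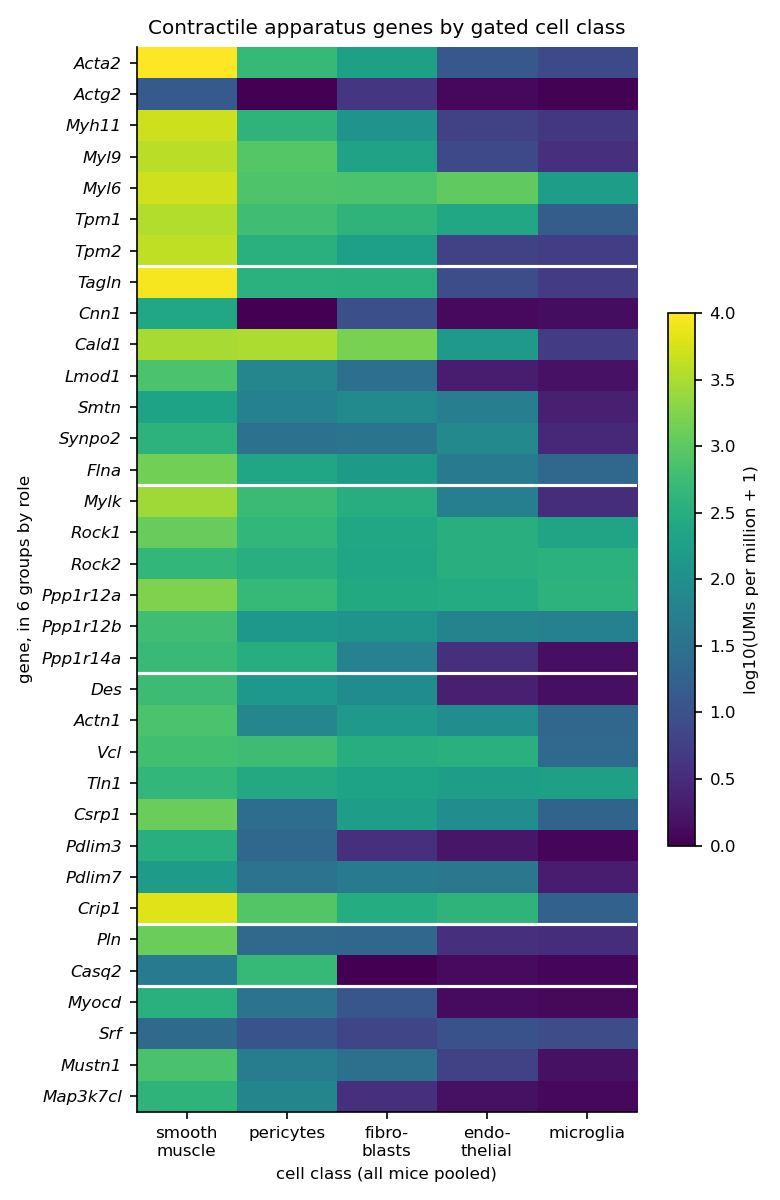
Each cell of the map shows a gene's level, as log10 of CPM plus 1, in 1 gated class pooled over all mice, with the 34 genes ordered by role and white lines between the 6 roles. The first column is brightest for most genes, Cald1 is as bright in pericytes (3228 CPM) as in smooth muscle cells (3015), and Casq2 is brightest in pericytes.

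Among the filament proteins, Acta2 (smooth muscle alpha-actin, chr19:34241090-34255590, minus strand, mm10) was the most abundant member. Its lowest, median and highest values over the 11 mice were 9110, 9927 and 11230 CPM in smooth muscle cells. The same 3 values were 189, 552 and 1046 in pericytes, so the pooled level was 21.2 times higher in smooth muscle cells and the classes did not overlap. Myh11, the smooth muscle myosin heavy chain used in the gate, ranged from 4168 to 6274 CPM with a median of 4795. Myl6, the essential light chain, stood at 4086 to 6083 in smooth muscle cells and was the member of this group most shared with the endothelium, at 852 to 1143 CPM there. Myl9, the regulatory light chain that the kinase phosphorylates, had 641 to 1361 CPM in pericytes and a pooled level 4.45 times higher in smooth muscle cells. Tpm2, a tropomyosin that lies along actin, was 802 times higher than in endothelial cells, while Tpm1, its partner, was 14.2 times higher and was present in endothelial cells of every mouse at 216 to 306 CPM. Actg2, the enteric smooth muscle actin, was scarce, at 4.12 to 22.6 CPM in smooth muscle cells. No Actg2 UMI was found among the 2023566 UMIs of pericytes, which makes it at least 8.60-fold higher in smooth muscle cells with a floor of 3 counts over the class.

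Most proteins that sit on actin followed Acta2. Tagln (transgelin, chr9:45929619-45936058, minus strand) had 6148, 8612 and 10226 CPM as its lowest, median and highest values in smooth muscle cells and 60.2, 355 and 1068 in pericytes. Cnn1, calponin, was also free of UMIs in pericytes and so at least 163-fold higher in smooth muscle cells, where it ran from 150 to 286 CPM. Lmod1, which nucleates actin filaments, was 10.4 times higher than in pericytes. Cald1 (caldesmon, chr6:34598500-34775473, plus strand), which holds actomyosin at rest, did not follow them. It had 2570 to 3410 CPM in smooth muscle cells and 2461 to 3706 in pericytes, so the ranges overlapped. Cald1 was also the most abundant member in the 90 fibroblasts, at 1554 CPM with an exact Poisson 95% interval of 1485 to 1627. Smtn, Synpo2 and Flna, which bind or cross-link actin, were present in endothelial cells as well. Synpo2 was there in every mouse, at 61.7 to 97.8 CPM, a pooled 19.4% of its smooth muscle level, and was lower in pericytes, at 0 to 217 CPM with 3 mice at 0.

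The enzymes of light chain control ranged from strongly to barely higher in smooth muscle cells. Mylk, the myosin light chain kinase, was at the upper end, with 2314 to 2904 CPM and a pooled level 51.1 times that of endothelial cells and 5.12 times that of pericytes. Rock1 and Rock2 are kinases that inhibit myosin phosphatase. Rock1 was 3.56 times higher than in endothelial cells, and Rock2 was 1.40 times higher than in endothelial cells and 1.26 times higher than in microglia, with overlapping ranges against pericytes and endothelial cells. Ppp1r12a and Ppp1r12b, the targeting subunits of myosin phosphatase, stood at 5.76 and 9.45 times the endothelial level. Ppp1r14a, the phosphatase inhibitor CPI-17, was found in both mural classes. It had 377 to 701 CPM in smooth muscle cells, 211 to 388 in pericytes with a small overlap, and a pooled 2.44 in endothelial cells.

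Of the 8 anchors and adhesion proteins, Vcl (vinculin) and Tln1 (talin) were shared across classes. Vcl had 462 to 736 CPM in smooth muscle cells, 469 to 798 in pericytes and 220 to 511 in endothelial cells, which all overlapped. Tln1 was 1.71 times higher than in pericytes and 2.64 times higher than in endothelial cells, without overlap. Des (desmin, the muscle intermediate filament protein), Actn1 (alpha-actinin), Csrp1, Pdlim3, Pdlim7 and Crip1 (LIM domain proteins) were higher in every smooth muscle mouse than in every pericyte mouse. Csrp1 showed the largest gap of these, 45.9-fold, and Pdlim7 and Des the smallest, 4.84-fold and 4.13-fold.

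The 2 calcium store genes went opposite ways. Pln (phospholamban, chr10:53337667-53345987, plus strand), which restrains the calcium pump of the sarcoplasmic reticulum, had 1131 to 1483 CPM in smooth muscle cells and 5.87 to 60.2 in pericytes, a pooled 56.0-fold difference. Casq2 (calsequestrin, chr3:102086415-102146514, plus strand), which binds calcium inside the store, had 26.2, 44.3 and 76.2 CPM as its lowest, median and highest values in smooth muscle cells. In pericytes these were 264, 469 and 763, so every pericyte mouse lay above every smooth muscle mouse, and the pooled level was 1169% of that in smooth muscle cells. The smooth muscle cells as gated were allowed fewer pericyte marker UMIs than Myh11 UMIs, and their 6 pericyte markers still summed to 487 to 722 CPM, against 13040 to 19310 in pericytes. The part of pericyte RNA in the smooth muscle level of Casq2 was not tested.

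Among the regulators, Myocd (myocardin, chr11:65176561-65269989, minus strand) had 205 to 415 CPM in smooth muscle cells and 6.43 to 66.4 in pericytes. Its partner Srf was low in all classes, at 16.5 to 30.9 CPM in smooth muscle cells and 0 to 25.3 in pericytes, and overlapped there. Mustn1 and Map3k7cl, small muscle-associated genes, were 14.6 and 5.94 times higher than in pericytes.

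**Figure D2:**
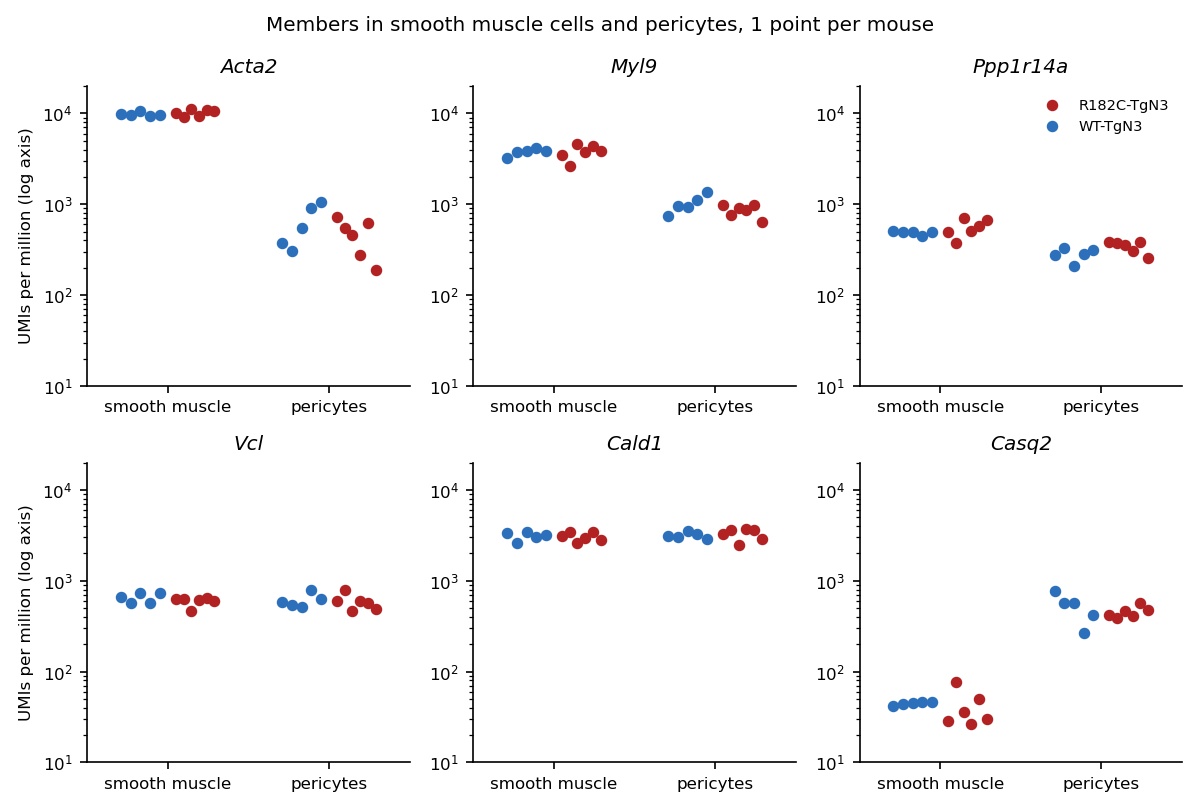
Each point is 1 mouse's level, in CPM on a log axis, in summed smooth muscle cells and pericytes, coloured by genotype. Acta2 and Myl9 separate the classes, Vcl and Cald1 overlap, and Casq2 runs the other way, with pericyte mice at 264 to 763 and smooth muscle mice at 26.2 to 76.2.

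Free RNA in droplets puts UMIs of abundant genes into cells that do not express them, and microglia served as the measure of it. After thinning every cell to 2000 UMIs, 99.4% of 2070 smooth muscle cells had an Acta2 UMI, as did 15.9% of pericytes, 2.31% of endothelial cells and 1.45% of microglia. Without thinning the shares were 99.6%, 18.5%, 5.22% and 3.49%, at median depths of 7969, 3226, 4829 and 5132 UMIs per cell. Tagln was found in 98.7% of thinned smooth muscle cells, 1.51% of endothelial cells and 1.00% of microglia. Per 100 Acta2 UMIs, Tagln gave 88.0 in smooth muscle cells, 66.8 in endothelial cells and 61.8 in microglia, and Tpm2 gave 41.1, 44.3 and 67.0. Other members were far above the smooth muscle ratio in endothelial cells, and less so in microglia. Tpm1 gave 35.2 in smooth muscle cells, 2141 in endothelial cells and 205 in microglia. Crip1 gave 63.1, 3477 and 241, Vcl gave 6.12, 2964 and 331, and Synpo2 gave 3.86, 647 and 26.4 in the same order.

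Fibroblasts were too few to follow by mouse, with 0 to 21 cells per library and 1 library reaching 20, so their members were pooled and no genotype fit was made. In the 4 mice with at least 10 fibroblasts, 33 members, the gate gene Myh11 among them, were lower than in every smooth muscle mouse, against 8.66% of 12821 genes. Actg2 was the exception. Acta2 stood at 189 CPM there (exact Poisson 95% interval 165 to 215), and Casq2 had no UMI among 1201778, which makes it at least 16.5-fold higher in smooth muscle cells. These intervals cover counting error only.

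Sequences upstream of the genes were read for the CArG box, the element that binds serum response factor, because 32 of the 34 members had their highest pooled level in smooth muscle cells. RefSeq windows (GRCm38.p6, 250 bases before to 50 after the start) were at hand for 28 members, Actg2, Myh11, Tagln, Rock1, Myocd and Map3k7cl being the others. A CArG box lay in the windows of 4 of them (14.3%), against 1.81% of 27025 genes. The 4 were Myl9, Myl6, Vcl and Srf, and Vcl and Srf had smooth muscle levels that overlapped those of pericytes. A CArG-like box, with 1 base of its 6-base core changed to G or C, lay in 4 of the 28 (14.3%), against 9.69%. The MCAT element CATTCC, on either strand, lay in 11 (39.3%), against 16.6%, and GTGGGAA, a form of the site bound by the Notch-responsive factor CSL, in 2 (7.14%), against 7.25%. Both strands were read for each, a CArG-like box is never also a CArG box, overlaps between the other motifs and a box were not removed, and a match is a description of these windows and not a shown site. The stretches around the boxes of Acta2 (chr19:34255378-34255477, minus strand), Myl9 (chr2:156775283-156775394, plus strand), Myl6 (chr10:128493030-128493079, minus strand) and Srf (chr17:46556195-46556264, minus strand) are shown 5′ to 3′ with CArG and CArG-like boxes in capitals.
Acta2: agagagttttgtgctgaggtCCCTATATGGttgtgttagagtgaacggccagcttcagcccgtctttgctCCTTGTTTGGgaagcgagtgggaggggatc
Myl9: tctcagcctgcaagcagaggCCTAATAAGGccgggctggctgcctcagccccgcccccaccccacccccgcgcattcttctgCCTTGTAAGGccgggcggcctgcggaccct
Myl6: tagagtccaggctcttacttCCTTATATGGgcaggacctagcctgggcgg
Srf: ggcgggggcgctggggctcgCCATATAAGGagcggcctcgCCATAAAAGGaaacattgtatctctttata
Acta2 thus carried 2 CArG-like boxes, 84 and 34 bases before the start, and no CArG box in this window. Srf, itself a target of serum response factor, carried 2 CArG boxes at 82 and 62 bases. Myl9, the member with 1 box of each kind, had them at 161 and 99 bases.

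Across single smooth muscle cells, several of the most abundant members varied together. Within each mouse, on log counts thinned to 2000 UMIs, Acta2 and Tagln had a median Pearson r of 0.693 over the 11 mice (0.54 to 0.86), Acta2 and Tpm2 of 0.674 (0.484 to 0.727), and Acta2 and Myl6 of 0.621 (0.476 to 0.751). Crip1, a LIM domain protein, followed the same genes, with r of 0.564 to Acta2. Myh11, also abundant, was closest to the kinase Mylk, at 0.363, and had 0.333 to Acta2, 0.291 to Tagln and 0.18 to Myl6. Cald1 stood outside at the median, with r of -0.0756 to Acta2, though it ranged from -0.237 to 0.493 over the mice. Of 231 pairs among the 22 members that averaged at least 1 thinned UMI, 31 had a median r above 0.3 and 27 were below 0. Rgs5, a mural cell gene and no member, ran against them, at -0.36 to Tagln (-0.47 to -0.039) and -0.329 to Acta2 (-0.44 to 0.0189). It was below 0 to 21 of the 22, and below 0 in every mouse to 7. Notch3, the other mural gene read, had -0.164 to Tagln (-0.256 to 0.0139) and -0.161 to Acta2 (-0.311 to 0.0855). Notch3 was above 0 to Cald1, Vcl and Myh11, at 0.0311, 0.0298 and 0.0266. Cells of a mouse share a library, a fixed total of UMIs and the Myh11 gate, so these values describe the cells and were not tested. The 22 members averaged from 1.04 (Ppp1r14a) to 19.8 (Acta2) thinned UMIs. The part of counting noise in the lower r was not tested.

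**Figure D3:**
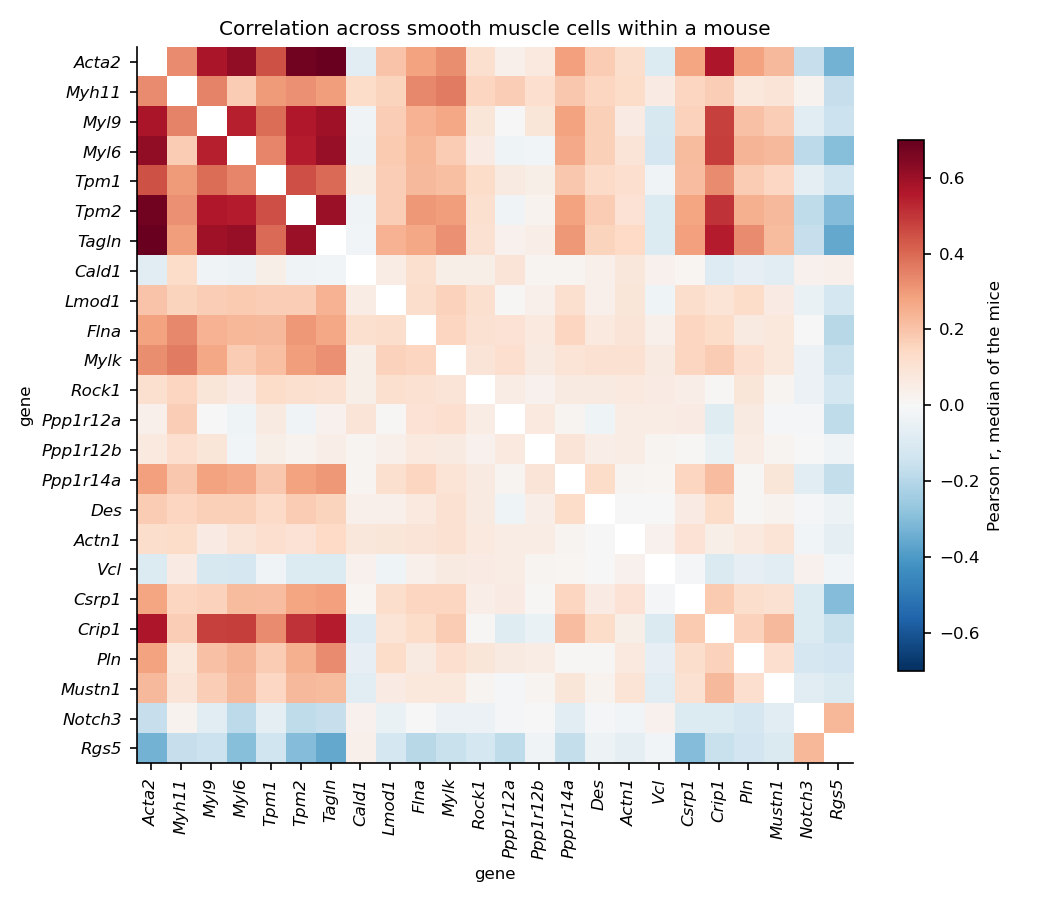
Colour gives the Pearson r between 2 genes across smooth muscle cells, computed within each mouse on log counts thinned to 2000 UMIs and shown as the median of 11 mice, for 22 members and the mural genes Notch3 and Rgs5. Acta2, Tagln, Tpm2, Myl6, Myl9 and Crip1 form a block of high values. Rgs5, and less strongly Notch3, are negative to them.

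For the genotype comparison, the transgene was checked first. Human NOTCH3 had 197 to 374 CPM in smooth muscle cells of R182C-TgN3 mice (250 ± 67.9, SD, n = 6) and 16.7 to 70.0 in those of WT-TgN3 mice (41.2 ± 24.6, n = 5), without overlap. Its log2 fold change was 2.45 (SE 0.26) with an adjusted p of 7.88e-05 in edgeR's quasi-likelihood test with Benjamini-Hochberg adjustment, used for every genotype test here. In pericytes it was 1.54 (SE 0.19, adjusted p = 7.6e-05). Mouse Notch3 differed by -0.09 (SE 0.11) in smooth muscle cells. The variant itself cannot be read from 3′ counts, and the genotypes therefore differed in line and in transgene RNA as well as in the variant, which cannot be told apart in these groups.

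In smooth muscle cells, which the gate chose by Myh11, no contractile member passed the test between genotypes, and the intervals were narrow. A cell that had lost its Myh11 RNA was not in these sums, so the result covers cells that kept it. Of the 34 members tested, 0 were called, against 0.0115% of 8718 genes, and 0 had an unadjusted p under 0.05, against 2.49% of genes. DESeq2 also called 0 members, with 0 at an unadjusted p under 0.05, and in both tools the 1 gene called was human NOTCH3. In 22 members the fitted value was higher in R182C-TgN3 mice and in 12 lower, with a median log2 fold change of 0.02 beside a median of -0.0041 over all genes. This direction did not hold with cells of mixed markers kept. There 3 of 34 members were higher and 31 lower, with a median of -0.11, and 2 of the 22 stayed higher. With a gate that used no contractile gene, 27 were higher and 7 lower, with a median of 0.07. For 31 members the whole 95% interval of the log2 fold change lay between -0.5 and 0.5, and for all 34 between -1 and 1. No member had groups that failed to overlap, against 0.146% of 19855 genes, nor did any in pericytes (0.389% of genes) or endothelial cells (0.122%). With preparation batch as a covariate 0 members were called in each of the 3 classes.

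Acta2 showed this closely. The R182C-TgN3 mice had 10127, 9110 and 11230 CPM at 6 months and 9346, 10834 and 10528 at 9 months. The WT-TgN3 mice had 9927, 9684 and 10585 at 6 months and 9407 and 9670 at 9 months. The groups overlapped, and both the highest and the lowest mouse were R182C-TgN3 mice of 6 months. The log2 fold change was 0.08 (SE 0.11, 95% interval -0.14 to 0.30, adjusted p = 0.9999 in edgeR). Tagln had 7614, 6148 and 10226 CPM in R182C-TgN3 mice at 6 months and 8612, 10081 and 9631 at 9 months. In WT-TgN3 mice it had 7229, 8649 and 8248 at 6 months and 8380 and 8818 at 9 months. Its log2 fold change was 0.11 (SE 0.14, interval -0.17 to 0.39), and the spread among R182C-TgN3 mice, an SD of 1600 CPM, exceeded that of WT-TgN3 mice, 621. Myh11 gave -0.04 (interval -0.30 to 0.22), with 4168 to 6117 CPM in R182C-TgN3 mice and 4680 to 6274 in WT-TgN3 mice. As a gate gene it was free to vary above 2 UMIs.

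Across the roles the fitted values stayed close to 0. The filament proteins ran from -0.27 (Actg2) to 0.18 (Myl6), the thin filament proteins from -0.03 (Synpo2) to 0.15 (Cnn1), and the enzymes of light chain control from -0.07 (Ppp1r12a) to 0.22 (Ppp1r14a). The anchors ran from -0.10 (Vcl) to 0.18 (Crip1), Casq2 and Pln were at -0.22 and 0.07, and the regulators ran from -0.05 (Myocd) to 0.11 (Mustn1). Ppp1r14a had the largest positive value, with 377, 541 and 701 CPM as the lowest, median and highest of the R182C-TgN3 mice and 511, 497, 491, 448 and 500 in the WT-TgN3 mice, which lay inside that range (interval -0.09 to 0.52). Actg2 had the widest interval, -0.90 to 0.36, on 225 UMIs in all. Of the 60 other genes of contraction and its control, 58 were tested and 0 were called, with 32 higher and 26 lower and a median of 0.01.

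**Figure D4:**
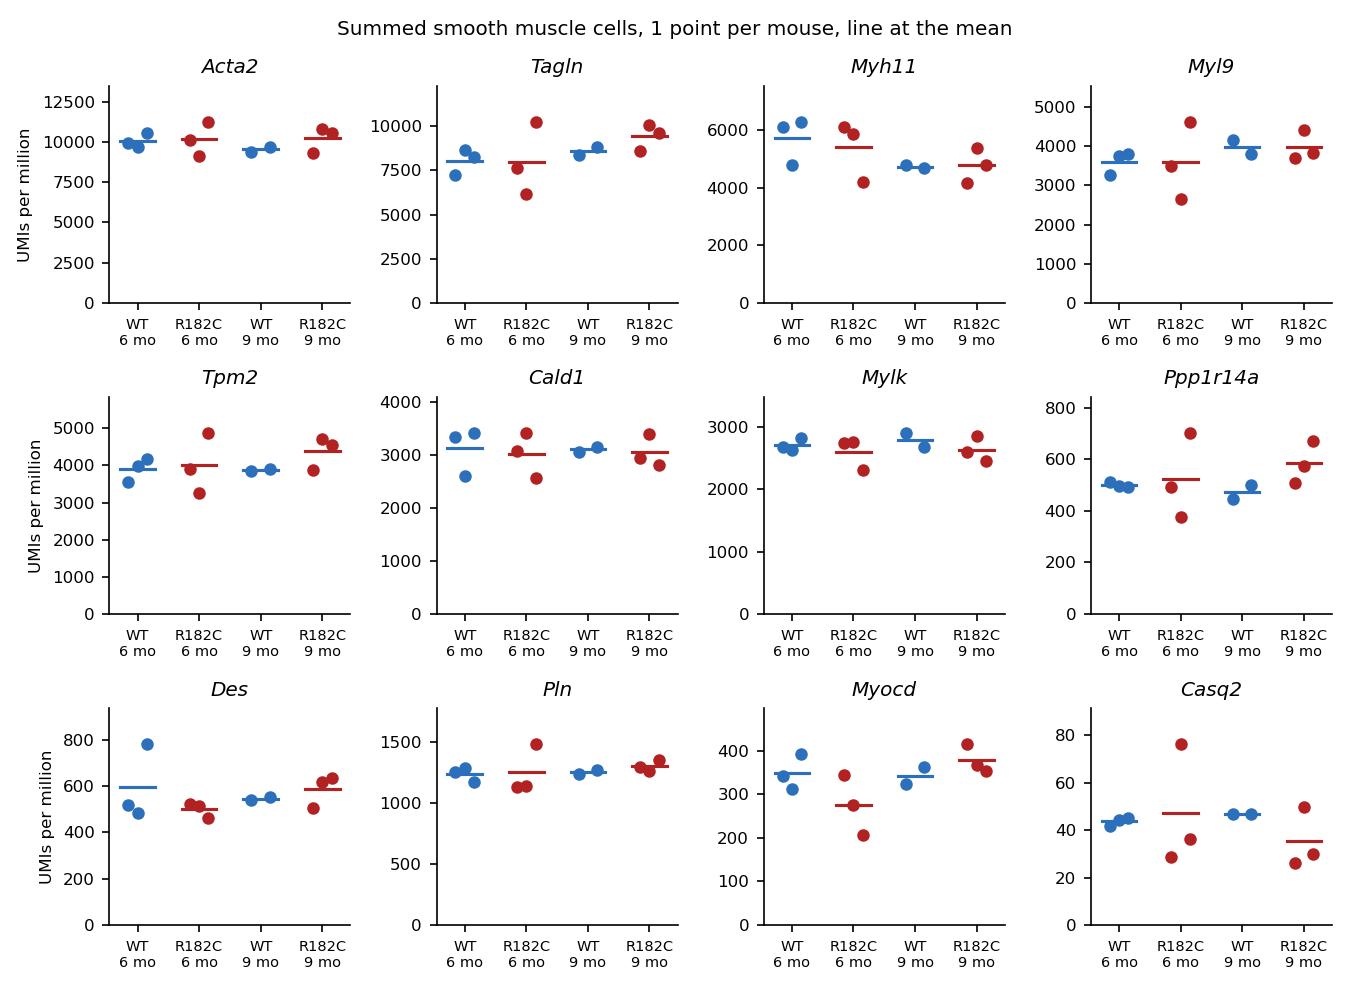
Each point is 1 mouse's level in summed smooth muscle cells, in CPM from 0, for 12 members, with a line at the mean of each genotype and age group. The genotypes overlap in every panel, and for Acta2 all 11 mice lie between 9110 and 11230.

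The 2 ages were prepared on different days, so age and preparation batch cannot be told apart. At 6 months 0 of 34 members were called, against 0.0115% of 8718 genes, and 15 were higher in R182C-TgN3 mice. At 9 months 0 were called, against 0.0% of genes, and 28 were higher, with a median log2 fold change of 0.13. Over all genes 4319 of 8718 were higher, with a median of -0.0027, as were 40 of the 58 related genes. Leaving out 1 mouse in turn left 26 to 31 members higher. The median was lowest, at 0.07, without R182C-TgN3 9 months mouse 3, the only mouse of its preparation batch. With cells of mixed markers kept, 9 of the 34 were higher at 9 months and 1 at 6 months. With the gate that used no contractile gene, 32 were higher at 9 months and 17 at 6 months. DESeq2 called 0 members at each age, and neither tool had a member at an unadjusted p under 0.05, against 3.01% of genes at 6 months and 2.04% at 9 months in edgeR. The test of the difference between the ages called 0 members, against 0.0% of genes, with 29 of 34 more positive at 9 months and a median of 0.17, beside 4339 of 8718 genes, a median of -0.0015 over all genes and 37 of the 58 related genes. Myocd was the 1 member with an unadjusted p under 0.05 there, in edgeR and in DESeq2, against 2.67% of genes. Its R182C-TgN3 mice had 344, 276 and 205 CPM at 6 months and 415, 367 and 353 at 9 months, and its WT-TgN3 mice 343, 312 and 392 at 6 months and 324 and 362 at 9 months. The genotype value was -0.34 (interval -0.70 to 0.03) at 6 months and 0.21 (-0.18 to 0.60) at 9 months, and the difference, 0.55 (SE 0.26), had an adjusted p of 0.9999 in edgeR.

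In pericytes no member passed the test, and the size of the lower fitted values varied with the mice and the settings used. Of 23 members that passed the filter on low counts, 0 were called, against 0.0341% of 2931 genes, and 1 had an unadjusted p under 0.05, against 5.29%. DESeq2 called 0 and had 0 at an unadjusted p under 0.05. The fitted value was lower for 18 of 23, with a median of -0.26, beside -0.02 over all genes. Without WT-TgN3 9 months mouse 1, 16 of 23 were lower and the median was -0.11, with Acta2 moving from -0.45 to -0.23, Des from -0.26 to -0.05 and Lmod1 from -0.26 to 0.01. The median was -0.11 without R182C-TgN3 9 months mouse 3, and -0.17 to -0.16 without R182C-TgN3 9 months mouse 1, WT-TgN3 6 months mouse 2 or WT-TgN3 9 months mouse 2. Every fit without 1 mouse had 16 to 19 of 23 members lower, with medians of -0.26 to -0.11. With all mice, the median was -0.11 with preparation batch as a covariate, -0.13 at the 20% mitochondrial limit and -0.17 in DESeq2. Tln1 was the member with the low unadjusted p, at 293, 375, 231, 186, 251 and 198 CPM in R182C-TgN3 mice and 324, 335, 307, 334 and 299 in WT-TgN3 mice. Its log2 fold change was -0.40 (SE 0.18, adjusted p = 0.927 in edgeR), and the groups overlapped through 1 R182C-TgN3 mouse of 6 months. Tagln had the lowest value, -0.71 (SE 0.43, interval -1.59 to 0.18). Its pericyte levels were 353, 405 and 482 CPM in R182C-TgN3 mice at 6 months and 287, 412 and 60.2 at 9 months. The WT-TgN3 mice had 80.9, 355 and 272 at 6 months and 1068 and 814 at 9 months, so the 2 WT-TgN3 mice of 9 months were the highest. Without WT-TgN3 9 months mouse 1 the value was -0.15. The 6 smooth muscle markers, members themselves, summed over pericytes to 708 to 1800 CPM in R182C-TgN3 mice and 1029 to 2458 in WT-TgN3 mice, with 5 of 6 detected and Cnn1 at 0. Their part in the result was not tested. Casq2, lower in smooth muscle cells than in pericytes, gave -0.18 (interval -0.61 to 0.25), and Cald1 gave 0.02 (-0.25 to 0.29).

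The filter on low counts mattered for pericytes. Without it 2 members were called lower in R182C-TgN3 mice by edgeR, Synpo2 (-2.18, adjusted p = 0.000474) and Tagln (-0.70, adjusted p = 0.0475). These were 2 of 32 members tested, against 42 of 13435 genes (0.313%). With the filter, Tagln had nearly the same value, -0.71, but an SE of 0.43, against 0.18 without it. The test had 23.1 degrees of freedom with the filter and 120915 without it, from 11 mice. The call of Tagln therefore rests on a smaller estimate of the spread between mice and not on a larger difference. Synpo2 had 62 pericyte UMIs in all, and its value of 217 CPM in WT-TgN3 9 months mouse 1 stood above 69.1, the highest of the other mice.

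Endothelial cells gave 0 called members of 30 tested, against 0.0% of 13060 genes, and 0 at an unadjusted p under 0.05, against 1.15%, with the same 2 counts in DESeq2. Among members well above the free RNA level in the endothelium, some were closely bounded. Tpm1 gave 0.05 (interval -0.13 to 0.22), Myl6 0.04 (-0.18 to 0.27) and Synpo2 0.10 (-0.13 to 0.32). Vcl, at 0.19 (-0.26 to 0.64), and Crip1, at 0.06 (-0.30 to 0.41), were less so. Acta2, near the level of free RNA, gave 0.63 with an interval of -1.29 to 2.55. Its endothelial level was 82.6 CPM in R182C-TgN3 6 months mouse 1, 30.3 in WT-TgN3 6 months mouse 1 and 2.25 to 12.2 in the other mice, and without the first of these the value turned to -1.15. Over the members, 20 of 30 were higher in R182C-TgN3 mice with that mouse and 7 of 29 without it. Tagln turned from 0.55 to -1.07 in the same way. That mouse also gave most of the cells left out for mixed smooth muscle and endothelial markers, and its 6 smooth muscle markers summed to 163 CPM in endothelial cells against a median of 13.8 in its group and 5.93 to 63.0 in WT-TgN3 mice. The part of such markers in these values was not tested.

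**Figure D5:**
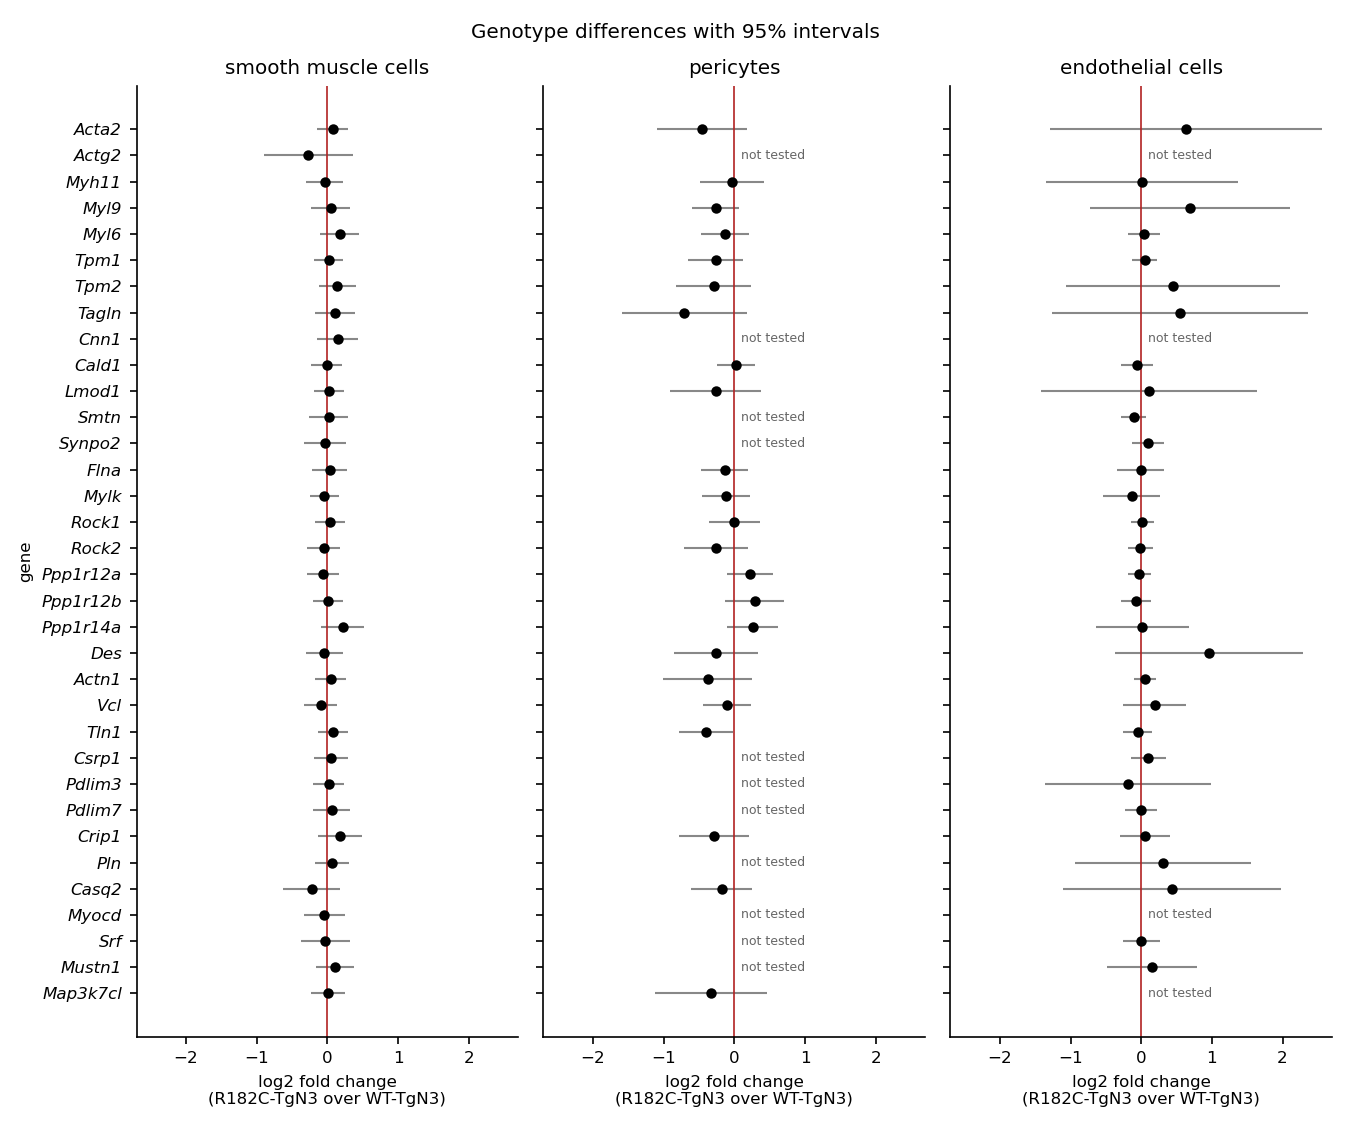
Points give the log2 fold change of R182C-TgN3 over WT-TgN3 mice for each of the 34 members in smooth muscle cells, pericytes and endothelial cells, with bars for the 95% interval from edgeR. Intervals are narrow in smooth muscle cells, where all 34 lie between -1 and 1. In endothelial cells 20 of 30 do, and Acta2, Tagln, Myl9 and Des are among those with wide intervals.

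The smooth muscle cells behind these sums did not differ in their share beyond the spread between mice. They made up 4.73% ± 1.43 (SD, n = 6) of gated smooth muscle cells, pericytes and endothelial cells in R182C-TgN3 mice and 6.15% ± 3.31 (n = 5) in WT-TgN3 mice, which differ by -1.42 points (exact 2-sided permutation p = 0.42 over 462 splits, and p = 0.375 with mice permuted within preparation batches). The shares ran from 3.02% to 7.18% and from 3.54% to 11.7%, and the highest was WT-TgN3 9 months mouse 1, without which the difference was -0.0385 points. With cells that carry markers of more than 1 class kept, the difference in the share of smooth muscle cells turned to 0.644 points (exact permutation p = 0.881), and the CD31 selection bears on every share.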

How the data were processed

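One library per mouse (11 mice) was made from CD31-selected cerebrovascular cells with a 3′ droplet kit. The authors processed the reads with Cell Ranger 7.0.0 on mm10 with human NOTCH3 added and deposited raw UMI count matrices, of 17550806 to 64215050 UMIs per library. Barcodes needed 500 genes or more and no more than 10% of UMIs from mitochondrial genes (61625 passed), and 3040 that scored highest as simulated doublets were dropped, at 0.8% per 1000 cells. Classes were gated on a list of marker genes, and counts were summed per mouse and class where a mouse had at least 20 cells. The tests omitted genes for ribosomal proteins, genes of the mitochondrial genome and Gm or Rik gene models, after the study's methods. Genotypes were compared with edgeR 4.0.16 (filterByExpr, TMM, quasi-likelihood test, Benjamini-Hochberg over all genes tested, threshold 0.05) in R 4.3.3, with DESeq2 1.42.0 as an alternative. The fit was tested on simulated data. Shares of cells were compared by an exact permutation test. Levels are CPM, and a level of 0 was bounded with 3 counts. The members and gene lists were chosen with earlier results of these data known, and all 34 members are accounted for. Gene positions come from GENCODE vM21. Preparation dates gave 4 batches, of which 3 hold both genotypes. Alternatives covered the gate, the cell filters, doublets, normalization, the filter on low counts, covariates and leaving out each mouse.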

Additional observations from a re-analysis of the deposited data

Results flagged for a closer look

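In 6 of 70 groups checked, the lowest or highest mouse stood apart from the rest of its genotype by Dixon's criterion, which chance flags in about 1 of 20 groups. All values are CPM in smooth muscle cells. R182C-TgN3 6 months mouse 3 was low for Rock2 (334, others 435 to 491), Ppp1r12a (1326, others 1641 to 1821) and Vcl (462, others 605 to 647). R182C-TgN3 6 months mouse 2, with the fewest smooth muscle cells (65), was low for Cnn1 (150, others 242 to 279). WT-TgN3 6 months mouse 3 was high for Des (782, others 485 to 552) and low for Pdlim7 (133, others 150 to 157).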

How the results depend on the processing

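The count of members called stayed at 0 in smooth muscle cells and endothelial cells under every alternative run, and in pericytes except without the filter on low counts, where it was 2. Over all genes, the call of human NOTCH3 in smooth muscle cells was lost with cells of mixed markers kept (0 genes called), in all mice and at 6 months. Without the filter on low counts, 42 genes were called in pericytes, 89 at 6 months, 52 at 9 months and 83 for the difference between ages. Those fits estimated the spread between mice anew, and in pericytes the SE of Tagln went from 0.43 to 0.18. Leaving out 1 mouse gave 0 to 3 genes at 6 months (3 without R182C-TgN3 6 months mouse 3, 0 without WT-TgN3 6 months mouse 1 or 3) and 0 to 1 at 9 months. The difference in the share of smooth muscle cells turned to 0.644 points with mixed cells kept. With mixed cells kept, the direction of the members in smooth muscle cells turned too, from 22 to 3 of 34 higher. With the gate that used no contractile gene, 27 of 34 were higher. The causes were not tested. Same-numbered mice did not deviate together (r of -0.207 to 0.155), so the numbers do not pair them. With the replicate block 0 members were called in each class and 2 genes in pericytes. Alternatives without cells whose barcode occurs in another library were chosen after seeing the data and moved no count of calls by over 1.5 times. No genotype fit could be made for fibroblasts, and smooth muscle cells could not be set against fibroblasts at 20 cells per mouse. Depth limits the pericyte sums, with 60233 UMIs in the smallest.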
